A study of Homo sapiens with 60 samples.

Results

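Polygalae Radix is the dried root of Polygala, used in East Asian herbal medicine and rich in triterpenoid saponins. A549, an established human lung carcinoma line of epithelial origin, was exposed for 24 h to its ethanol extract, and the comparison described here sets the 380 µg/mL library against the 15.2 µg/mL library. These are 2 of the 60 libraries of the series, chosen by their labels alone. The rest of the series holds 8 extracts in all, at 3 doses each, and 3 vehicle libraries. Per the series design text, 380 µg/mL was the concentration at an IC20 (the dose that lowers a viability readout by 20%), and 76 and 15.2 µg/mL were its 1/5 and 1/25 dilutions. The labels give the vehicle as 0.1% DMSO and the design text as 2% DMSO. All libraries are titled BatchC. The library names of the vehicle begin with C1 and those of this extract with 11, and libraries that share such a prefix are called a set here.

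Each dose of the extract had 1 library, so no test across replicates could be made and every difference below compares 2 libraries. Levels are counts per 1e6 counts after TMM scaling (CPM), and a ratio is log2((CPM + 1 at 380 µg/mL)/(CPM + 1 at 15.2 µg/mL)), so a negative value means lower at 380 µg/mL. Genes of at least 10 CPM in either library were described, and a gene was counted as higher or lower when it moved at least 2-fold. Totals were 22.681 M counts at 380 µg/mL and 22.696 M at 15.2 µg/mL, within the 18.003 to 33.832 M of the series, so a gene at 1 CPM rested on 28.9 and 22.5 counts. Intervals beside ratios are exact binomial (Clopper-Pearson) 95% intervals of the log2 CPM ratio without the added 1. They cover counting error only.

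The 380 µg/mL library stood apart from the rest of the series before any gene was considered. Its TMM factor was 1.275, against 0.991 at 15.2 µg/mL and 0.890 to 1.049 in the 57 libraries outside the extract. Its values rose with transcript length, with a slope of 0.121 log2 units per doubling over 9492 genes, against 0.019 at 15.2 µg/mL and -0.073 to 0.063 in 55 other libraries, leaving out 2 that stood apart with slopes down to -0.521 (Soshiho-tang medium replicate 3; low dose of Longan Arillus, replicate 3). Mitochondrially encoded mRNA took 11.7% of counts at 380 µg/mL and 12.98% at 15.2 µg/mL, within the 6.39% to 15.1% of the other 57. The summed markers of A549 cells were 2920 CPM at 380 µg/mL and 15600 CPM at 15.2 µg/mL, against 10600 to 23200 CPM in the other 57, while SFTPC and CDKN2A were at 0 and NKX2-1 at 0.104 CPM at 380 µg/mL. Marker sums of 5 other cell types were lower at 380 µg/mL: 104 against 151 CPM for neural, 20.8 against 45.6 CPM for fibroblast, 5.26 against 20.2 CPM for leukocyte, 0.380 against 0.445 CPM for endothelial and 0.0692 against 0.578 CPM for hepatocyte genes. The part of length, scaling or cell makeup in the results was not tested. In bulk RNA, fewer cells of a kind and less RNA per cell cannot be told apart.

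At 380 µg/mL most of the described mRNAs for glycolytic enzymes, cytosolic chaperones, keratins, the cytoskeleton and amino acid charging were at least 2-fold lower than at 15.2 µg/mL. A smaller set of genes was higher, among them CHD5, the nuclear receptor genes NR4A3 and NR4A2, the phosphatase gene DUSP8 and a number of zinc finger genes. Of 9960 genes described, 1145 (11.5%) were at least 2-fold lower and 220 (2.21%) at least 2-fold higher. At least 4-fold lower were 111 genes (1.11%), and 5 (0.0502%) were at least 4-fold higher. The split between directions rests on the scaling: CPM by library size, without TMM factors, moved the median ratio of all genes by 0.38 and gave 527 lower (5.1%) and 1017 higher (9.85%) of 10325 genes. Of the calls, 83.9% were in the lower direction with TMM and 34.1% without it. With DESeq2 size factors the share was 82.7%. The median of all genes was -0.07 with TMM and 0.30 by library size, and medians relative to it are given for some of the gene groups below. The shares of all genes set beside gene groups below are not matched for abundance. At least 2-fold lower were 7.39% of genes at 20 to 40 CPM in vehicle, but 50% of those at 640 CPM or more. The part of abundance or exon number in the group counts was not tested.

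The 10 CPM minimum itself favours differences in genes of low level. Of the 220 higher genes, 92 reached 10 CPM in the 380 µg/mL library alone, and of the 1145 lower genes, 225 reached it in the 15.2 µg/mL library alone. The values at the line between called and uncalled were close: TMEM64 was at 59.7 CPM at 380 µg/mL and 29.3 CPM at 15.2 µg/mL, just inside, and USP12 at 103.9 CPM at 380 µg/mL and 51.5 CPM at 15.2 µg/mL, just outside. On the lower side SRP72 (68.0 CPM at 380 µg/mL, 137 CPM at 15.2 µg/mL) was just inside and UTP14A (33.5 CPM at 380 µg/mL, 68.0 CPM at 15.2 µg/mL) just outside.

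More genes differed at least 2-fold between the middle and the high dose than between the low and the middle dose. At 76 over 15.2 µg/mL, 1 gene (0.0104%) was at least 2-fold higher and 4 (0.0415%) lower of 9638, while 380 over 76 µg/mL gave 61 higher (0.619%) and 596 lower (6.05%) of 9854. At 380 over 15.2 µg/mL 220 were higher and 1145 lower, so part of those differences reached 2-fold only over both steps. These comparisons share libraries with each other. The 15.2 µg/mL library lay close to vehicle although the sets differ, with 11 genes (0.114%) at least 2-fold higher and 9 (0.0932%) lower than the mean of the 3 vehicle libraries among 9660.

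No replicate of the extract exists, so the spread between libraries can only be read from other groups. Over 19 replicated groups the median gene had an SD of 0.132 on the log2 scale, or 0.0686 without the 2 libraries that stood apart. Between 51 pairs of replicate libraries 0 to 31.5% of genes differed at least 2-fold, and 0 to 0.757% between the 48 pairs without those 2 libraries. In the other extracts, high and low libraries with the same replicate number differed at least 2-fold in 0.0312% to 29.5% of genes over 18 pairs, and in at most 1.01% over the 17 pairs without Longan Arillus replicate 3. The share for Polygalae Radix was 13.7%. Aucklandiae Radix, the other extract with 1 library per dose and of the same set, gave the 1.01%, with 42 genes higher (0.429%) and 57 lower (0.582%) of 9790 at 370 over 14.8 µg/mL. The 380 µg/mL library lay above all 57 libraries outside the extract in 2354 genes (23.6%) and below all of them in 2967 genes (29.8%).

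**Figure D1:**
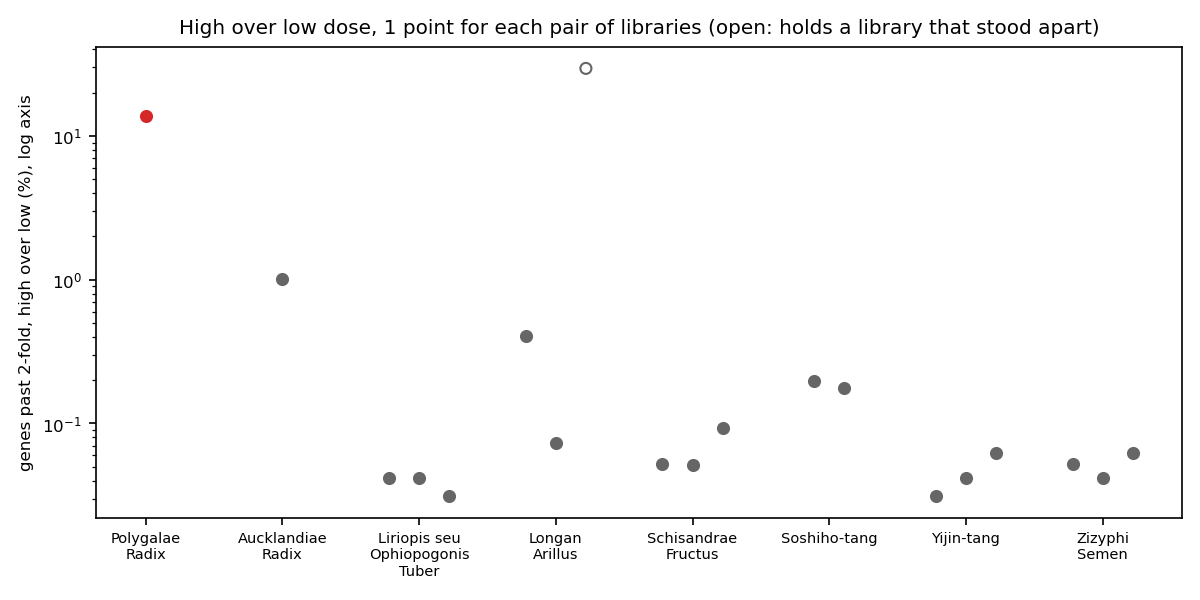
Share of genes that differed at least 2-fold between the high and the low dose (log axis, %), 1 point for each pair of libraries with the same replicate number, by extract. Polygalae Radix stood at 13.7%, against at most 1.01% in the 17 other pairs without Longan Arillus replicate 3, whose low-dose library stood apart (open point, 29.5%).

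Immediate early genes are the first genes that cells transcribe after a stimulus, without new protein synthesis, and they encode transcription factors of the FOS, JUN, EGR, KLF and NR4A families. The NR4A proteins are orphan nuclear receptors whose amount is set mainly by how much of their mRNA is made, and their promoters are known to answer to the cAMP and calcium responsive factor CREB. Of the 30 immediate early genes listed, 24 were described, 5 of them through the 380 µg/mL library alone. At least 2-fold higher were 4 of the 24, and 0 were lower, against 2.21% and 11.5% of all genes. Among these 4, NR4A2 and ATF3 reached 10 CPM at 380 µg/mL alone. The median ratio of the 24 was 0.55, or 0.63 relative to the median of all genes, and 0.66 relative to it by library size. With library-size CPM, 12 of them were at least 2-fold higher, beside 9.85% of all genes. Against vehicle 8 were higher and 1 lower, beside 2.99% and 13.7% of all genes.

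NR4A3 had 71.0 CPM at 380 µg/mL, against 11.3 CPM at 15.2 µg/mL and 8.57 to 9.81 CPM in the vehicle libraries, a ratio of 2.55 (interval 2.46 to 2.85). NR4A2 had 41.6 CPM at 380 µg/mL and 6.94 CPM at 15.2 µg/mL, a ratio of 2.42 (interval 2.34 to 2.83). NR4A1 had 115 CPM at 380 µg/mL and 44.0 CPM at 15.2 µg/mL, a ratio of 1.37. For all 3 receptors the 380 µg/mL value was above every one of the 57 libraries outside the extract, beside 23.6% of all genes. The receptors were named by the ratio of that same library, so this only describes them and adds no support. Their 76 µg/mL values (18.02, 11.4 and 62.0 CPM for NR4A3, NR4A2 and NR4A1) lay between. The fourth immediate early gene past 2-fold was ATF3, a stress-induced repressor of the CREB family, with 17.9 CPM at 380 µg/mL and 5.87 CPM at 15.2 µg/mL, a ratio of 1.46. The other members did not reach 2-fold, among them, named outside the rule, FOS (10.7 CPM at 380 µg/mL and 6.32 CPM at 15.2 µg/mL), JUN (28.6 CPM at 380 µg/mL and 27.0 CPM at 15.2 µg/mL) and MYC (197.9 CPM at 380 µg/mL and 140.7 CPM at 15.2 µg/mL). JUNB was at 52.9 CPM at 380 µg/mL and 68.6 CPM at 15.2 µg/mL, so the NR4A genes were high while JUN and JUNB were near or under their low-dose level.

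Feedback inhibitors of MAP kinase signalling, the cascade that carries growth factor and stress signals, stood on the same side. DUSP8, a phosphatase that acts on the stress kinases JNK and p38, had 17.8 CPM at 380 µg/mL, against 2.94 CPM at 15.2 µg/mL, 2.79 CPM at 76 µg/mL and 2.83 to 3.08 CPM in vehicle, a ratio of 2.26 (interval 2.23 to 3.00). Its level at 76 µg/mL was not above that at 15.2 µg/mL, unlike NR4A3. DUSP5, a nuclear phosphatase of ERK, had 105.3 CPM at 380 µg/mL and 45.9 CPM at 15.2 µg/mL. Of 20 listed feedback genes and EGFR ligands, 12 were described, 2 of them through the 380 µg/mL library alone. DUSP8 and DUSP5 were the 2 at least 2-fold higher, beside 2.21% of all genes, and DUSP8 reached 10 CPM at 380 µg/mL alone. None were lower (0 of 12), and the median was 0.70. The count of 2 was 6 by library size, 4 when ratios were centred on the median, 1 against vehicle and 1 with a minimum of 30 CPM. Of all genes 9.85%, 2.96%, 2.99% and 1.72% were higher in these settings. MAP3K5, the stress kinase ASK1 upstream of JNK and p38 and not on that list, had 31.4 CPM at 380 µg/mL and 9.47 CPM at 15.2 µg/mL, a ratio of 1.63.

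The promoters of DUSP8, NR4A3 and NR4A1 are shown because each of these genes was at least 2-fold higher at 380 µg/mL. They are the 150 bases before the RefSeq start site in GRCh38.p14, 5′ to 3′ on the strand of the gene, with each match to the CREB half-site TGACG or its reverse complement CGTCA in capitals. The full CREB site TGACGTCA holds both half-sites, overlapping by 2 letters.
DUSP8: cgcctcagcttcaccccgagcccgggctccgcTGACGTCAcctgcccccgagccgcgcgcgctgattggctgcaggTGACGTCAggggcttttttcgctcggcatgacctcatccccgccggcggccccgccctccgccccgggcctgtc
NR4A3: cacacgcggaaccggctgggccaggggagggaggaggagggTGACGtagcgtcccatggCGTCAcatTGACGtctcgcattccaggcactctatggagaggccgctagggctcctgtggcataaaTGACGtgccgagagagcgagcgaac
NR4A1: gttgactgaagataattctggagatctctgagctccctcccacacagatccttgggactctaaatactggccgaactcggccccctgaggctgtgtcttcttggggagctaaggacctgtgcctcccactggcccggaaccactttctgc
The DUSP8 window is chr11:1572272-1572421 on the minus strand and holds 2 full sites, at 118 and 74 bases before the start. The NR4A3 window is chr9:99821735-99821884 on the plus strand and holds 4 half-sites and 0 full sites. The NR4A1 window is chr12:52022682-52022831 on the plus strand and has 0 matches, which says only that these letters are not in this window. The ATF3 window of the same length, not printed, also lies near the outermost start of its gene (212565334 to 212620777) and has 0 matches. Of 35116 RefSeq promoters, 15.4% hold a half-site and 1.4% a full site in a window of the same length. A match is a description of the letters and not of binding.

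**Figure D2:**
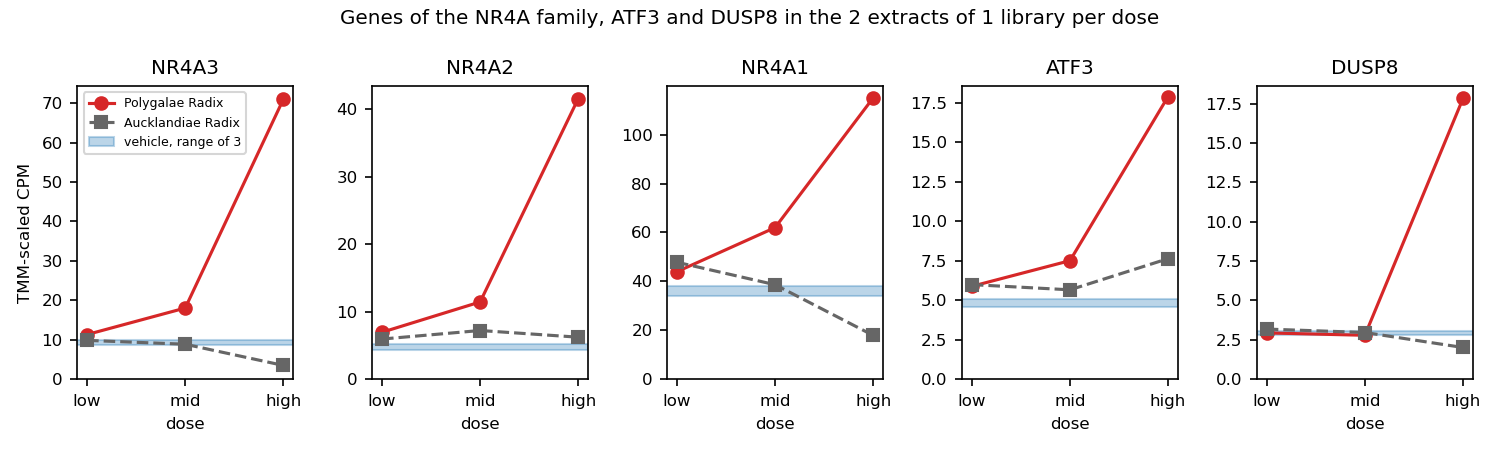
TMM-scaled CPM of NR4A3, NR4A2, NR4A1, ATF3 and DUSP8 by dose in Polygalae Radix (red; 15.2, 76 and 380 µg/mL) and Aucklandiae Radix (grey; 14.8, 74 and 370 µg/mL), 1 library per point, with the range of the 3 vehicle libraries as a band. The 380 µg/mL point of Polygalae Radix is the highest in each panel, and NR4A3 and NR4A1 were lowest at the high dose of Aucklandiae Radix.

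The 12 genes with the largest ratios otherwise held few signalling genes. Of these 12, NR4A3, ZNF121 and DCAF16 reached 10 CPM in both libraries. The others, among them CHD5, NR4A2, DUSP8 and MAP3K5, were described through the 380 µg/mL library alone, where they were high. CHD5, a chromatin remodeller best known from the nervous system (chromosome 1, 6101793 to 6180123, GENCODE 29 on GRCh38), led with 12.8 CPM at 380 µg/mL, against 1.11 CPM at 15.2 µg/mL and 2.25 CPM at 76 µg/mL. That is 371 counts against 25, a ratio of 2.71 (interval without the added CPM 2.94 to 4.18). PLD6, an outer mitochondrial membrane enzyme needed for piRNA production in mouse germ cells, had 29.1 CPM at 380 µg/mL and 6.58 CPM at 15.2 µg/mL. EID3, a gene of 1 exon for an SMC5/6 complex subunit, had 31.1 CPM at 380 µg/mL and 7.47 CPM at 15.2 µg/mL. The zinc finger genes were ZNF121, which had 77.3 CPM at 380 µg/mL and 20.9 CPM at 15.2 µg/mL, ZNF239 (10.4 CPM at 380 µg/mL and 2.58 CPM at 15.2 µg/mL) and ZNF502 (14.9 CPM at 380 µg/mL and 4.09 CPM at 15.2 µg/mL). DCAF16, a substrate receptor of a ubiquitin ligase, had 74.4 CPM at 380 µg/mL and 24.5 CPM at 15.2 µg/mL. EIF3CL is uncertain: it is a near-identical copy of the translation factor gene EIF3C, it had 20.4 CPM at 380 µg/mL and 3.69 CPM at 15.2 µg/mL but 37.4 CPM at 76 µg/mL, and its replicate SD in other groups was 1.54. EIF3C itself, named outside the rule beside its copy, had 94.8 CPM at 380 µg/mL and 443 CPM at 15.2 µg/mL. Leaving EIF3CL aside, the 23 other genes of both extremes had replicate SDs of 0.0596 to 0.305 in other groups. All 23 lay outside the range of the 57 libraries at 380 µg/mL. These genes were picked by the ratio of that same library, so both comparisons only describe the picked genes and add no support.

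**Figure D3:**
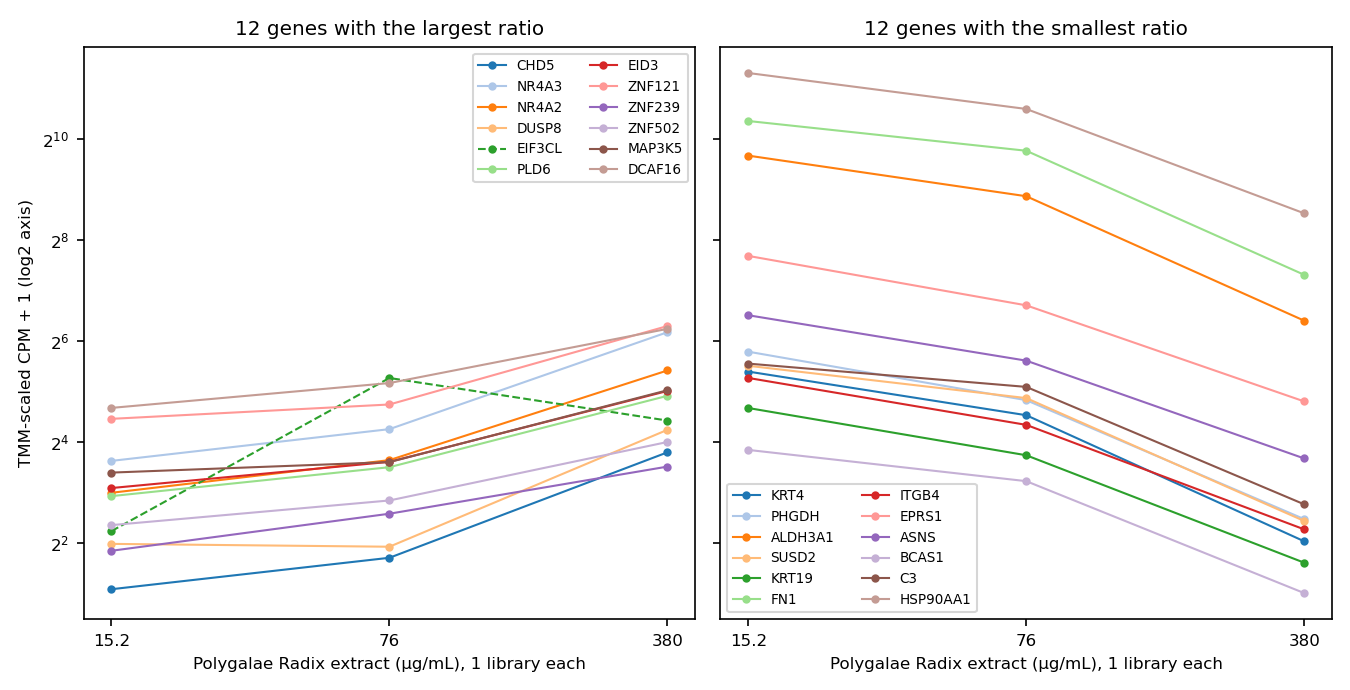
TMM-scaled CPM + 1 (log2 axis) at 15.2, 76 and 380 µg/mL, 1 library each, for the 12 genes with the largest (left) and the 12 with the smallest ratio (right). In 10 of the 12 on the left and 12 of the 12 on the right the 76 µg/mL value lies between the others, and EIF3CL (dashed) and DUSP8 are the exceptions.

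Glycolysis, the cytosolic route from glucose to pyruvate and lactate, supplies carcinoma cells with energy and building blocks. Of 23 listed genes 20 were described, all 20 at 10 CPM or more in both libraries. Of these, 13 were at least 2-fold lower and 0 higher, beside 11.5% and 2.21% of all genes. Many of them are abundant genes, and the 20 summed to 20830 CPM in vehicle. Of all genes at 320 to 640 CPM in vehicle 40.6% were lower, and of those at 640 CPM or more 50%. The median of the list was -1.53. By library size 12 were lower and 1 was higher, beside 5.1% and 9.85% of all genes. PKM, which makes pyruvate, had 576 CPM at 380 µg/mL, against 3288 CPM at 15.2 µg/mL, a ratio of -2.51 (interval -2.54 to -2.49). LDHA, which turns pyruvate into lactate, had 349 CPM at 380 µg/mL and 1746 CPM at 15.2 µg/mL. The enolase ENO1 (357 CPM at 380 µg/mL, 1778 CPM at 15.2 µg/mL), the kinase PGK1 (80.5 CPM at 380 µg/mL and 388 CPM at 15.2 µg/mL) and GAPDH (1548 CPM at 380 µg/mL and 6256 CPM at 15.2 µg/mL) were lower by similar ratios of -2.31, -2.26 and -2.02. All 5 were under the range of the 57 libraries outside the extract, beside 29.8% of all genes. They were named by the ratio of that same library, so this only describes them. At 76 µg/mL they lay between (1821, 1097, 1020, 242 and 4511 CPM at 76 µg/mL in the order named). Not every gene was lower: the glucose transporter gene SLC2A3 had 66.9 CPM at 380 µg/mL and 35.9 CPM at 15.2 µg/mL, a ratio of 0.88. The enolase gene ENO2 had 43.7 CPM at 380 µg/mL and 32.4 CPM at 15.2 µg/mL, a ratio of 0.42. Both are named outside the rule and were higher, though short of 2-fold.

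The pentose phosphate path branches from glycolysis and makes NADPH, and in A549 it is kept high by the factor NRF2, whose inhibitor KEAP1 is mutated in this line. All 6 listed genes of this path and of NADPH supply were at least 2-fold lower, beside 11.5% of all genes. The transketolase TKT had 299 CPM at 380 µg/mL and 1573 CPM at 15.2 µg/mL, a ratio of -2.39. IDH1, the cytosolic isocitrate dehydrogenase, had 49.0 CPM at 380 µg/mL and 209 CPM at 15.2 µg/mL. The wider NRF2 list was not uniform: of 30 described genes of 31, 16 were at least 2-fold lower and 2 higher, with a median of -1.24. Of all genes 11.5% were lower and 2.21% higher. Among the detoxification genes, ALDH3A1, an aldehyde dehydrogenase, had 83.3 CPM at 380 µg/mL, against 812 CPM at 15.2 µg/mL and 863.8 to 917 CPM in vehicle, a ratio of -3.27. ALDH1A1 had 950.0 CPM at 380 µg/mL and 5687 CPM at 15.2 µg/mL, a ratio of -2.58. AKR1C1, AKR1C2 and AKR1C3 are near-identical copies and uncertain as single genes, with ratios of -1.18, -1.60 and -1.82. The thiol and glutathione genes, by contrast, had 1 of 9 at least 2-fold lower and 1 higher, with a median of -0.13. SRXN1, sulfiredoxin, had 823 CPM at 380 µg/mL and 393 CPM at 15.2 µg/mL, a ratio of 1.07, and OSGIN1, an oxidative stress-induced growth inhibitor, 228 CPM at 380 µg/mL and 109 CPM at 15.2 µg/mL, a ratio of 1.06. GCLC and TXNRD1, both classical NRF2 targets named outside the rule, had ratios of 0.33 and 0.31.

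In mitochondria, the citrate cycle list had 15 of 23 genes at least 2-fold lower and 0 higher, beside 11.5% and 2.21% of all genes. Its median was -1.47. OGDH, a subunit of the oxoglutarate dehydrogenase complex, had 13.8 CPM at 380 µg/mL and 80.1 CPM at 15.2 µg/mL, and the malate dehydrogenase MDH2 71.1 CPM at 380 µg/mL and 325 CPM at 15.2 µg/mL. GOT2, the mitochondrial aspartate aminotransferase, had 46.8 CPM at 380 µg/mL and 201 CPM at 15.2 µg/mL. Of 55 nuclear genes of oxidative phosphorylation, 25 were at least 2-fold lower and 0 higher, with a median of -0.89, led by the ATP synthase subunit ATP5F1A (62.7 CPM at 380 µg/mL, 289 CPM at 15.2 µg/mL). By library size 7 of the 55 were at least 2-fold lower, against 76 µg/mL 12 and against vehicle 38. Of all genes 5.1%, 6.05% and 13.7% were lower in these settings. The 13 mRNAs encoded in mitochondrial DNA had 0 members past 2-fold in either direction and a median of -0.55. MT-ND1, named outside the rule, was at 6953 CPM at 380 µg/mL and 11560 CPM at 15.2 µg/mL, but at 5852 to 6928 CPM in vehicle, so its lower level against the low dose is not one against vehicle.

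The proteasome degrades ubiquitinated proteins. Its 20S core holds the proteolytic chamber, its 19S regulator unfolds substrates, and separate proteins activate or assemble it. All 40 listed genes were described, 1 of them through the 380 µg/mL library alone. Of these, 20 were at least 2-fold lower and 0 higher, beside 11.5% and 2.21% of all genes. Their median was -0.99, or -0.92 relative to the median of all genes. By library size 7 were lower and 1 higher, beside 5.1% and 9.85% of all genes, and the relative median was -0.94. Against 76 µg/mL 10 were lower, beside 6.05% of all genes. In the 19S regulator 11 of 17 were past 2-fold, led by PSMD2 (54.7 CPM at 380 µg/mL, 208 CPM at 15.2 µg/mL, ratio -1.91) and PSMD1 (74.6 CPM at 380 µg/mL and 248 CPM at 15.2 µg/mL, ratio -1.72). In the 20S core 7 of 14 were, led by PSMB3 (32.3 CPM at 380 µg/mL and 108 CPM at 15.2 µg/mL, ratio -1.71). PSMC3, an ATPase of the regulator, had 35.4 CPM at 380 µg/mL and 107 CPM at 15.2 µg/mL. The strongest single value belonged to PSME1, a subunit of the interferon-inducible 11S activator, with 10.5 CPM at 380 µg/mL and 43.0 CPM at 15.2 µg/mL, a ratio of -1.94. Among the 9 activator and assembly genes only PSME1 and PSME2 were past 2-fold, and the assembly chaperone gene PSMG3, named outside the rule, had 31.8 CPM at 380 µg/mL and 18.2 CPM at 15.2 µg/mL, a ratio of 0.77. In 33 of the 40 genes the 380 µg/mL library was under all 57 libraries outside the extract, beside 29.8% of all genes.

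Keratins are the intermediate filament proteins of epithelia, and KRT8 and KRT18 pair in simple epithelia such as the lung lining. Of 18 listed genes 8 were described, 2 of them through the 15.2 µg/mL library alone. At least 2-fold lower were 7 of the 8, beside 11.5% of all genes, with a list median of -2.10. KRT18 had 392 CPM at 380 µg/mL, against 2680 CPM at 15.2 µg/mL and 2788 to 2909 CPM in vehicle, a ratio of -2.77 (interval -2.80 to -2.74). KRT8 had 466 CPM at 380 µg/mL and 3096 CPM at 15.2 µg/mL, a ratio of -2.73, so both partners were lower by nearly the same ratio. KRT7 (403 CPM at 380 µg/mL, 1885 CPM at 15.2 µg/mL) and KRT19 (2.04 CPM at 380 µg/mL and 24.4 CPM at 15.2 µg/mL) were lower too. KRT81 (939 CPM at 380 µg/mL, 3677 CPM at 15.2 µg/mL) and KRT86 (5.98 CPM at 380 µg/mL and 16.1 CPM at 15.2 µg/mL) are near-identical hair keratin genes and uncertain as single genes. The single described member that was not lower was KRT10, named outside the rule, with 34.8 CPM at 380 µg/mL and 28.7 CPM at 15.2 µg/mL. KRT4, which is not on the list, had the smallest ratio of all named genes, -3.36, from 3.08 CPM at 380 µg/mL and 40.9 CPM at 15.2 µg/mL (89 against 920 counts). KRT4 was also low at the high dose of Aucklandiae Radix, with 5.84 CPM at 370 µg/mL and 37.5 CPM at 14.8 µg/mL. KRT7, KRT8, KRT18, ALDH1A1 and AKR1B10 are also among the A549 markers whose sum is given above.

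**Figure D4:**
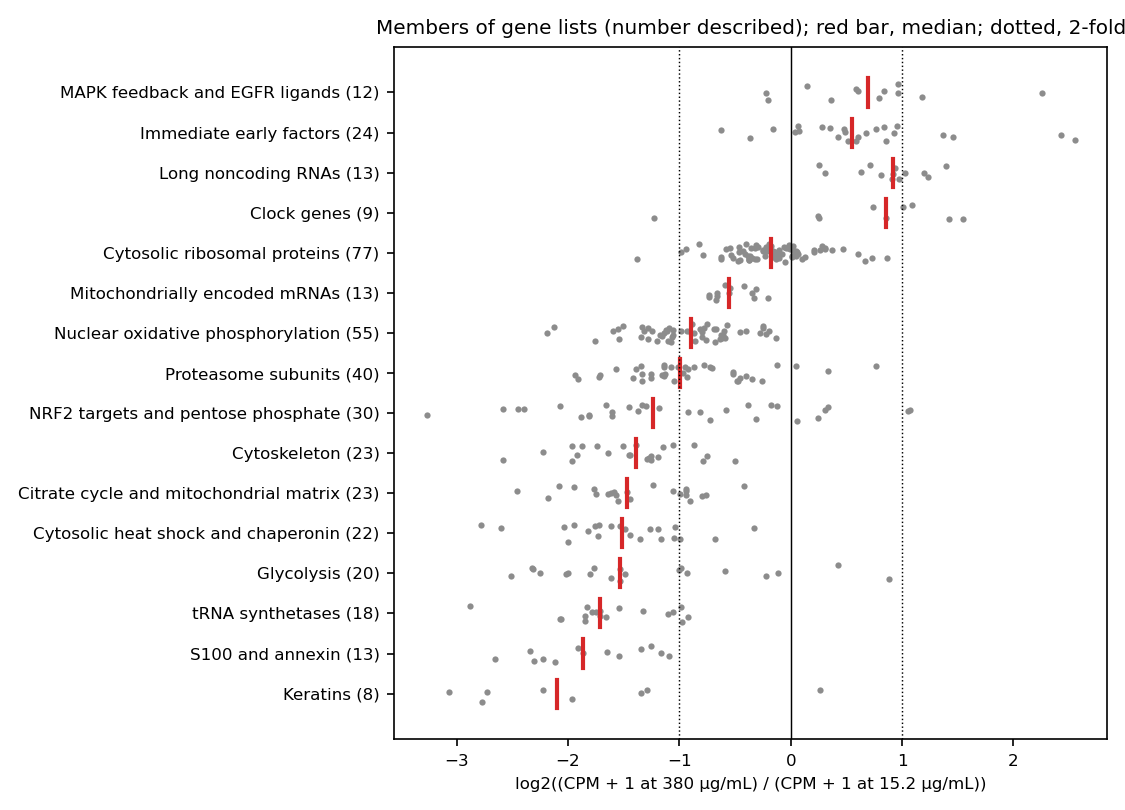
Ratio at 380 over 15.2 µg/mL (log2, 1 CPM added) of each described member (grey) of 16 gene lists, with the number described in brackets, the list median (red) and lines at 2-fold. The medians run from -2.10 for keratins to 0.92 for long noncoding RNAs, against -0.07 over all genes.

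Adhesion and matrix genes were also among the lowest ratios, and 6 of the 13 described genes of junctions and epithelial state were at least 2-fold lower and 0 higher. Of all genes 11.5% were lower and 2.21% higher. FN1, fibronectin, had 157 CPM at 380 µg/mL, against 1307 CPM at 15.2 µg/mL, 868 CPM at 76 µg/mL and 1173 to 1232 CPM in vehicle, a ratio of -3.05. ITGB4, the integrin subunit that ties keratins to the basement membrane, had 3.80 CPM at 380 µg/mL and 37.4 CPM at 15.2 µg/mL. SUSD2, a membrane protein of lung epithelia (4.39 CPM at 380 µg/mL, 44.4 CPM at 15.2 µg/mL), and BCAS1 (1.00 CPM at 380 µg/mL and 13.3 CPM at 15.2 µg/mL) were lower as well. In the cytoskeleton list 19 of 23 genes were at least 2-fold lower and 0 higher, with a median of -1.39. By library size 12 were lower, beside 5.1% of all genes. Among the 19 were the actin crosslinker FLNA (521 CPM at 380 µg/mL, 2434 CPM at 15.2 µg/mL) and the tubulin TUBB (450.1 CPM at 380 µg/mL and 1762 CPM at 15.2 µg/mL, uncertain for its near copies). All 13 described of 14 S100 and annexin genes, which bind calcium and membranes, were at least 2-fold lower, with a median of -1.86; ANXA2 had 449 CPM at 380 µg/mL and 2284 CPM at 15.2 µg/mL.

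Secreted proteins of the coagulation and complement systems, normally made mostly by the liver and expressed by A549, were also lower. Of 14 listed genes 10 were described, 7 at least 2-fold lower and 0 higher, beside 11.5% and 2.21% of all genes. C3, the central complement protein, had 5.78 CPM at 380 µg/mL and 45.8 CPM at 15.2 µg/mL, a ratio of -2.79. FGB, a fibrinogen chain, had 53.3 CPM at 380 µg/mL and 266 CPM at 15.2 µg/mL. The hepatocyte markers ALB and TTR were at 0 CPM in both libraries.

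Protein folding genes were lower in the cytosol and in the endoplasmic reticulum. HSP90AA1, the stress-inducible cytosolic HSP90, had 367 CPM at 380 µg/mL, against 2527 CPM at 15.2 µg/mL and 2776 to 2825 CPM in vehicle, a ratio of -2.78 (interval -2.81 to -2.75). Its constitutive partner HSP90AB1 had 466 CPM at 380 µg/mL and 1871 CPM at 15.2 µg/mL. HSPA1A and HSPA1B, near-identical HSP70 genes and uncertain as single genes, had ratios of -2.60 and -1.82. All 8 subunits of the chaperonin that folds actin and tubulin were at least 2-fold lower, from -1.05 for TCP1 to -2.03 for CCT7 (133 CPM at 380 µg/mL, 547 CPM at 15.2 µg/mL). Of the 22 cytosolic heat shock and chaperonin genes 19 were lower and 0 higher, and by library size 13 were lower. In the unfolded protein response list 9 of 19 were lower and 1 higher, and by library size 5 were lower and 2 higher. Of all genes 11.5% were lower and 2.21% higher, and by library size 5.1% and 9.85%. The calcium-binding chaperone CALR had 90.7 CPM at 380 µg/mL and 499 CPM at 15.2 µg/mL, whereas the sensor gene ERN1, chosen after its value was seen, had 40.6 CPM at 380 µg/mL and 17.0 CPM at 15.2 µg/mL, a ratio of 1.21.

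Amino acid supply and charging formed another lower group. The ATF4 list holds the factor ATF4, which is translated when amino acids are short, and its targets. Of its 8 genes of amino acid synthesis 6 were at least 2-fold lower, beside 11.5% of all genes. PHGDH, the first enzyme of serine synthesis, had 4.53 CPM at 380 µg/mL, against 54.1 CPM at 15.2 µg/mL, 27.3 CPM at 76 µg/mL and 58.7 to 61.7 CPM in vehicle, a ratio of -3.32. ASNS, asparagine synthetase, had 11.7 CPM at 380 µg/mL and 89.9 CPM at 15.2 µg/mL, a ratio of -2.84. SHMT2 (26.4 CPM at 380 µg/mL, 132.5 CPM at 15.2 µg/mL) and PSAT1 (49.0 CPM at 380 µg/mL and 217 CPM at 15.2 µg/mL), of serine and glycine metabolism, were lower by ratios of -2.29 and -2.12. The transcription factors and regulators on the same list did not move with them: 0 of 8 were past 2-fold in either direction and their median was 0.10. ATF4 itself, named outside the rule, had 347 CPM at 380 µg/mL and 259 CPM at 15.2 µg/mL. The stress cytokine GDF15, the 1 list member at least 2-fold higher, had 37.7 CPM at 380 µg/mL and 14.1 CPM at 15.2 µg/mL, a ratio of 1.36.

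The ASNS promoter is shown because it is the best studied target of ATF4 through a short element, and PHGDH is set beside it as the gene of the list with the smallest ratio. The capitals mark the element core TGATGNAA or its reverse complement.
ASNS: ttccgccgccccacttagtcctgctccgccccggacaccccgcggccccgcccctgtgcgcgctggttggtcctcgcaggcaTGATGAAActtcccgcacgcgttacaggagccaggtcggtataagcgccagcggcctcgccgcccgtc
PHGDH: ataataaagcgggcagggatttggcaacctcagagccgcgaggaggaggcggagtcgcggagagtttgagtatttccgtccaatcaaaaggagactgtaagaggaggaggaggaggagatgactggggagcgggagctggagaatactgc
The ASNS window (chr7:97872409-97872558, minus strand) holds 1 match, 68 bases before the RefSeq start. The PHGDH window (chr1:119711784-119711933, plus strand) holds 0, and so do the windows of PSAT1 and EPRS1, which are not printed. A match is found in 1.9% of the 35116 promoters in a window of the same length. Here too a single RefSeq start per gene was searched.

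The cytosolic tRNA synthetases, which charge tRNAs with amino acids, formed a lower group as well. Of 18 genes 15 were at least 2-fold lower and 0 higher, beside 11.5% and 2.21% of all genes. Their median was -1.71, or -1.64 relative to the median of all genes. EPRS1, the synthetase for glutamate and proline, had 26.8 CPM at 380 µg/mL, against 204 CPM at 15.2 µg/mL, 103 CPM at 76 µg/mL and 221 to 238 CPM in vehicle, a ratio of -2.88. WARS1 (30.6 CPM at 380 µg/mL, 132 CPM at 15.2 µg/mL) and AARS1 (65.9 CPM at 380 µg/mL and 278 CPM at 15.2 µg/mL), for tryptophan and alanine, followed. The 3 that missed 2-fold, KARS1, RARS1 and HARS1, had ratios of -0.98, -0.97 and -0.92. Cytosolic ribosomal proteins differed from this: of 77 genes 1 was at least 2-fold lower (FAU, 40.8 CPM at 380 µg/mL and 108 CPM at 15.2 µg/mL) and 0 were higher, and their median of -0.18 turned to 0.18 by library size, -0.11 and -0.12 relative to the median of all genes.

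Lists of cell division and lipid synthesis were lower in part. Of 25 mitosis genes 9 and of 30 DNA replication genes 10 were at least 2-fold lower, 0 higher, with medians of -0.80 and -0.49. By library size, and likewise against 76 µg/mL, 5 mitosis and 6 DNA replication genes were lower. Of all genes 11.5% were lower, or 5.1% by library size and 6.05% against 76 µg/mL. TOP2A, the topoisomerase of dividing cells, had 287 CPM at 380 µg/mL and 896.5 CPM at 15.2 µg/mL, while the mitotic kinase CDK1, named outside the rule, had 87.8 CPM at 380 µg/mL and 84.4 CPM at 15.2 µg/mL. In cholesterol synthesis and uptake 8 of 22 genes were lower, with a median of -0.80, but 3 by library size and 5 against 76 µg/mL. In fatty acid synthesis 6 of 12 were lower, with a median of -1.09, and 4 by library size, led by the desaturase FADS2 (112 CPM at 380 µg/mL, 457 CPM at 15.2 µg/mL).

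Besides the immediate early genes, long noncoding RNAs and clock genes stood on the higher side. Of 13 listed long noncoding RNAs, all at 10 CPM or more in both libraries, 4 were at least 2-fold higher and 0 lower. Of all genes 2.21% were higher and 11.5% lower. The list median was 0.92. By library size 10 of the 13 were higher, beside 9.85% of all genes, and against 76 µg/mL 1 was, beside 0.619%. Over all 203 described genes of a long noncoding biotype, 25 were higher and 8 lower, with a median of 0.47. NORAD, a cytoplasmic RNA that binds Pumilio proteins, had 719 CPM at 380 µg/mL, against 273 CPM at 15.2 µg/mL and 275 to 287 CPM in vehicle. NEAT1, the scaffold of nuclear paraspeckles, had 1238 CPM at 380 µg/mL, against 527 CPM at 15.2 µg/mL and 287 to 309 CPM in vehicle. The snoRNA host RNA SNHG5 had 125 CPM at 380 µg/mL and 53.8 CPM at 15.2 µg/mL, and the nuclear speckle RNA MALAT1 1524 CPM at 380 µg/mL and 746 CPM at 15.2 µg/mL. Unlike NORAD and NEAT1, SNHG5 and MALAT1 stayed at 380 µg/mL within the range of the 57 libraries outside the extract. That range reached 325 CPM for SNHG5 and 11640 CPM for MALAT1. For NORAD it reached 319 CPM and for NEAT1 1222 CPM, so NEAT1 at 1238 CPM was barely above it. Among clock genes, 4 of 9 described were at least 2-fold higher and 1 lower. By library size 6 were higher and 0 lower, and against 76 µg/mL 2 were higher and 0 lower. The repressors PER3 (15.8 CPM at 380 µg/mL, 4.76 CPM at 15.2 µg/mL), PER2 (106 CPM at 380 µg/mL and 52.2 CPM at 15.2 µg/mL), CRY2 (16.6 CPM at 380 µg/mL and 7.30 CPM at 15.2 µg/mL) and NR1D2 (62.1 CPM at 380 µg/mL and 22.6 CPM at 15.2 µg/mL) were higher, and the activator BMAL1 (6.61 CPM at 380 µg/mL and 16.9 CPM at 15.2 µg/mL) was lower. Of the 9 clock genes 3 were described through the 380 µg/mL library alone. Cells of 1 time point give no phase of the clock.

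A group chosen after seeing its values was that of zinc finger genes with a ZNF, ZFP, ZSCAN or ZKSCAN symbol, of which 298 of 604 were described. At least 2-fold higher were 43 and lower was 1, beside 2.21% and 11.5% of all genes. The median was 0.63, beside -0.07 over all genes. How many of the group reached 10 CPM at 380 µg/mL alone was not counted, but ZNF239 and ZNF502 did. Nor was the group counted by library size, where 9.85% of all genes were higher. In 236 of the 298 the 380 µg/mL library was above all 57 libraries outside the extract, beside 23.6% of all genes.

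The direction of a gene's ratio went with how abundant the gene was and with how many exons it had. Among genes of 20 to 40 CPM in vehicle, 7.39% of 2599 were at least 2-fold lower, among those of 160 to 320 CPM 26.9% of 646, and among those of 640 CPM or more 50% of 158, with median ratios of 0.00, -0.54 and -0.99. Vehicle levels were used to sort the genes because they enter neither side of the ratio. Protein-coding genes of 1 exon had a median of 0.41, with 11.2% of 143 at least 2-fold higher and 2.1% lower. The median was -0.06 for genes of 6 to 10 exons and -0.27 for those of 21 or more, where 0.739% of 1488 were higher and 16.3% lower. Within 20 to 40 CPM, genes of 1 to 3 exons had a median of 0.31 and those of over 10 exons -0.10, and at 640 CPM or more the medians were -0.66 (17 genes) and -1.34 (63 genes). At 76 over 15.2 µg/mL, which shares the low-dose library, the medians ran from 0.10 for 1 exon to -0.06 for 21 or more. By median transcript length the medians ran from -0.25 for 2487 genes of up to 1717 bases to 0.07 for 2486 genes of 4108 bases or more.

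**Figure D5:**
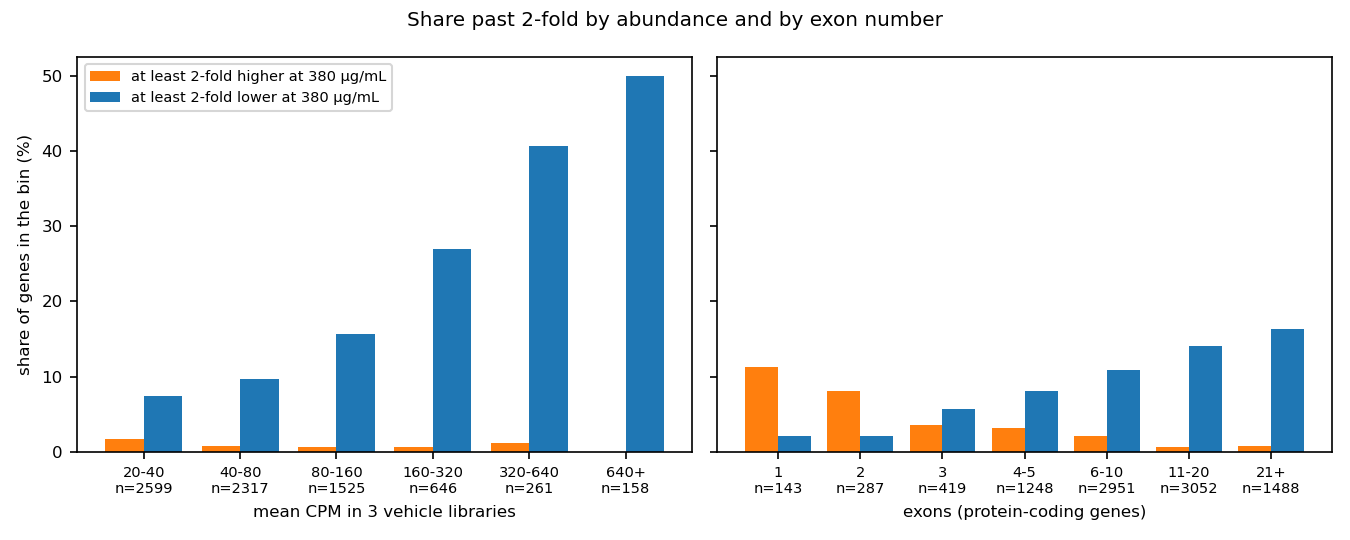
Share of genes (%) at least 2-fold higher (orange) or lower (blue) at 380 than at 15.2 µg/mL, by mean CPM in the 3 vehicle libraries (left) and by the exon number of the transcript with most exons in protein-coding genes (right), with the number of genes under each bin. The lower share grows from 7.39% to 50% with abundance and from 2.1% to 16.3% with exon number.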

How the data were processed

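The deposited values are expected counts of 60675 Ensembl gene identifiers in 60 libraries, which the authors did not scale. Per the submitters' processing notes, the tools were STAR 2.7.3a and RSEM 1.3.3 on hg38 (GRCh38), with Trim Galore 0.6.5 and FastQC 0.11.9. Not given in the sources used here were the annotation release and strand setting, so near-identical, overlapping and antisense genes are uncertain. Of the deposited values, 10.5% were not whole. Expected counts were rounded and scaled to CPM with TMM factors over all 60 libraries (edgeR 4.0.16, R 4.3.3). Ratios were computed in Python 3.11.15 with 1 CPM added, for genes of at least 10 CPM in either library. RSEM shares reads between similar genes, and the intervals treat the rounded counts as reads. Symbols were found for 41209 identifiers, and GENCODE 29 (basic set) held 56996, from which coordinates, exon numbers and median transcript lengths were taken. Promoter sequences are from RefSeq. All 60 count columns were matched to samples by their library names.

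With 1 library a side there is no p-value. Genes named are the 12 largest and the 12 smallest ratios and up to 5 members past 2-fold of each list. Outside this rule are AKR1C1, AKR1C2, SRXN1, OSGIN1, HSPA1B, TCP1, KRT86, PSME2, KARS1, RARS1, HARS1 and JUNB, beside those said so where they are named and those at the 2-fold line. The members and the 45 gene lists were chosen with earlier results of these data known. Where nothing in the labels says that replicate libraries were separate cultures, their spread may be technical. Alternatives were DESeq2 1.42.0 size factors, other minimums, pseudocounts and bases. Some genes that meet the rule are not reported here.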

Additional observations from a re-analysis of the deposited data

Results flagged for a closer look

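Some genes moved at least 2-fold in opposite directions at the high dose of the 2 extracts with 1 library per dose. The difference between the extracts was not tested. NR4A3 had a ratio of 2.55 at 380 over 15.2 µg/mL Polygalae Radix and -1.28 at 370 over 14.8 µg/mL Aucklandiae Radix, where it had 3.47 CPM at the high and 9.82 CPM at the low dose. NR4A1 had ratios of 1.37 in Polygalae Radix and -1.37 in Aucklandiae Radix, where it had 17.9 CPM at the high and 47.8 CPM at the low dose. Outside the named genes, AHNAK, EDA2R and XAGE1A also had opposite signs past 2-fold, with -1.45, -1.09 and -1.11 in Polygalae Radix and 1.15, 1.18 and 3.28 in Aucklandiae Radix.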

How the results depend on the processing

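The genes at least 2-fold higher numbered 220, and 1017 with CPM by library size, 355 with a minimum of 1 CPM, 110 with a minimum of 30 CPM and 61 with the 76 µg/mL library as the base. The genes at least 2-fold lower numbered 1145, and 527 by library size and 596 against 76 µg/mL. The other alternatives stayed within 1.5-fold of these counts, with 180 to 299 higher and 900 to 1376 lower. They were DESeq2 size factors, centring on the median, a pseudocount of 0.1 CPM, a minimum on the mean of both libraries, the vehicle mean as base, protein-coding genes alone and a correction for transcript length, and for the lower genes also the minimums of 1 and 30 CPM. Of the 159 genes named by the rule or eligible through a list, 156 stayed past 2-fold in the same direction with DESeq2 size factors, 155 after the length correction, 152 against vehicle, 137 by library size and 125 of 157 against 76 µg/mL. EIF3CL reversed to -0.84 against 76 µg/mL; the cause was not tested. The median SD between replicate libraries was 0.132, and 0.0686 without the 2 libraries that stood apart, an alternative chosen after seeing the data. No paired analysis was possible because the high and low dose of this extract share only replicate 1.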
